A study of Homo sapiens with 4 samples.

Results

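Typical oncofetal genes are active in fetal liver, fall in the adult organ and are switched on again in many hepatocellular carcinomas. A set of 10 genes counted as oncofetal was followed here, and not every member need follow this pattern in full. The set held the serum marker AFP, the surface proteins GPC3 and DLK1, and the imprinted genes IGF2, H19 and PEG10. It also held the RNA-binding proteins IGF2BP1, IGF2BP3 and LIN28B, and the transcription factor SALL4. All 10 genes were taken by gene symbol from the array's annotation, and each was represented by 1 probe set of 53617 on the array. For 8 of the genes the probe set carried that symbol alone. The IGF2 probe set also lists INS-IGF2 and INS, and the H19 probe set also lists MIR675, so neither separates these transcripts.

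The cells were Huh7, a human hepatocellular carcinoma line, in 2 groups of 2 arrays. In the STYK1 group they had been transfected with pcFLAG-hSTYK1, a plasmid for human STYK1, a kinase related to receptor tyrosine kinases, and in the control group with pcFLAG. Both groups thus share the cell line, the plasmid backbone and the transfection, and the labels do not say whether the arrays of a group came from separate cultures. The share of cells that took up a plasmid is not given in the sources used here, and in such bulk RNA fewer cells with a transcript and less of it per cell cannot be told apart. The values are log2 signals, and with 2 arrays a group their number limits the precision. A floor was set on each array at the 95th percentile of its olfactory receptor signals, 0.73 to 0.78. Most of these genes are not known to be used by liver cells, and signals under the floor were taken as not above background. The transfected gene checked the labels: STYK1 read 0.26 and 0.61 with the control plasmid and 7.40 and 7.86 with STYK1. The hepatocyte markers fixed for the check were all above the floor on every array, with 8 of 8 measured, among them ALB at 10.51 and 10.42 with the control plasmid and 10.60 and 10.60 with STYK1. Endothelial markers were above it on no array. Of 5 fibroblast and stellate markers 2 passed it on each control array, 0 on STYK1 replicate 1 and 1 on STYK1 replicate 2, and their summed signal was 3.2 and 3.6 with the control plasmid and 2.6 and 3.0 with STYK1. COL1A1, the highest of them, read 0.83 and 0.93 with the control plasmid, close to the floor. Of the cholangiocyte markers SPP1 passed the floor on 3 arrays and KRT7 and CFTR on none, and of the immune markers LYZ, at 7.94 and 7.92 against 8.05 and 7.91, and CD14 passed it on all, while PTPRC and CD3E, which define leukocytes and T cells, passed it on none. The part of these signals in the results was not tested.

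As background, several of the members act at different levels of gene control and growth in the fetus. IGF2 is a fetal growth hormone that signals through the insulin and IGF1 receptors, and H19 is the noncoding RNA of the same imprinted locus, expressed from the other parental allele. The IGF2BP proteins bind and stabilise messenger RNAs, IGF2 among them, and LIN28B blocks the maturation of the let-7 microRNAs, which in turn repress LIN28B, the IGF2BP genes and HMGA2. SALL4 is a zinc finger factor of embryonic stem cells and fetal liver that recruits the NuRD deacetylase complex.

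Of the 10 genes, 7 gave a signal above the floor on all 4 arrays, and 3 lay at it. AFP, GPC3, DLK1, PEG10, IGF2BP1, LIN28B and IGF2BP3 were the 7, the last of them at a low signal. IGF2 and SALL4 passed the floor on 3 arrays and H19 on 1. With the floor at the 99th percentile of the olfactory receptors the count stayed at 7, and at the 90th percentile it was 9. No member differed between the groups by the adjusted test, and the 7 clearly measured ones differed by at most 0.073 log2 units in size.

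**Figure D1:**
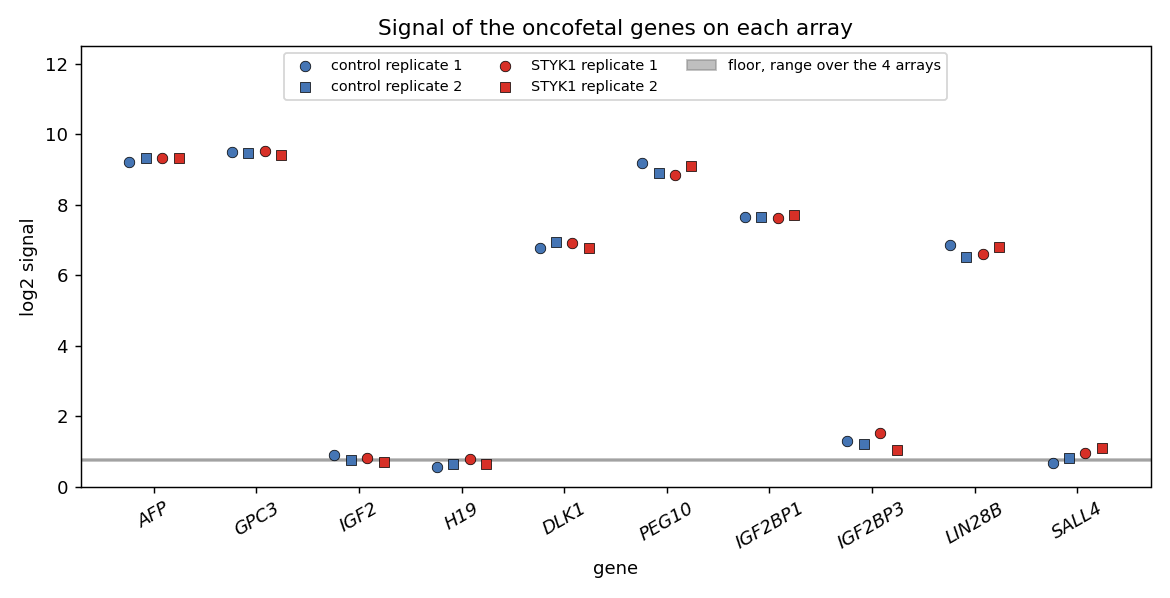
Log2 signal of each of the 10 genes (x axis) on each array (y axis), with control arrays in blue, STYK1 arrays in red, replicate 1 as circles and replicate 2 as squares; the grey band is the range of the floor over the arrays, 0.73 to 0.78. The groups overlap for every gene except SALL4, where both STYK1 arrays, at 0.95 and 1.11, lie above the control arrays, and IGF2, H19 and SALL4 lie at or near the band. Heights of different genes come from different probes and are not comparable.

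AFP, the fetal counterpart of albumin and the blood marker of liver cancer, differed little between the groups. It read 9.21 and 9.32 with the control plasmid and 9.31 and 9.33 with STYK1, so control replicate 2 lay between the STYK1 arrays. The difference was 0.06 (standard error 0.0915; limma, adjusted p = 0.994), and its 95% interval ran from −0.18 to 0.30. On the linear scale the interval allows between 0.881 and 1.23 times the control signal. The promoter of AFP is shown because the nuclear receptor NR5A2, listed among its regulators, and HNF1 factors are known to act in it. The window covers chr4:73435971-73436270 of GRCh38.p14, plus strand, from RefSeq, with 250 bases before the start of the gene and 50 after it. Capitals mark, in order, the letters TCAAGG found in NR5A2 elements, which lie here on the minus strand, the letters GTTAAT found in HNF1 elements, and the letters TATAAA of a TATA box.
AFP promoter: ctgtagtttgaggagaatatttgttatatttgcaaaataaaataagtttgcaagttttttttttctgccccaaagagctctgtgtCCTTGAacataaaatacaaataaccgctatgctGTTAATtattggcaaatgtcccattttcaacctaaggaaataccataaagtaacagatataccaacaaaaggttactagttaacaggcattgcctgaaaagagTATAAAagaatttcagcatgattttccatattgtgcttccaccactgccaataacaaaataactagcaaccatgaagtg

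Both strands were searched, and the matches do not overlap one another. Of 35116 promoter windows of the same length, 12.3% hold TCAAGG, 6.88% hold GTTAAT and 11.5% hold TATAAA. The window has a GC content of 33.0%, against a median of 58.7% over all windows. NR5A2 itself read 3.74 and 3.48 with the control plasmid and 3.78 and 3.68 with STYK1, a difference of 0.12 (limma, adjusted p = 0.983), with overlapping groups. ALB, the adult neighbour of AFP in the albumin gene family, differed by 0.14 (limma, adjusted p = 0.979), and AFM, another member of that family, passed the floor on control replicate 1 alone. Windows for 3 other members, H19, LIN28B and IGF2BP3, were also found; none of them holds GTTAAT or TATAAA, and H19's holds TCAAGG.

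GPC3, a heparan sulphate proteoglycan anchored to the cell surface and a target of liver cancer antibodies, differed as little. Its signal was 9.49 and 9.46 with the control plasmid and 9.51 and 9.41 with STYK1, so the STYK1 arrays held both the highest and the lowest value. The difference was −0.02 with a standard error of 0.0899 and an interval from −0.25 to 0.22 (limma, adjusted p = 0.999). Of the other glypicans, GPC6 was well above the floor, at 5.98 and 5.83 with the control plasmid and 5.73 and 5.88 with STYK1. GPC1 lay just above it on each array, between 0.79 and 0.99, GPC4 passed it on 2 arrays, and GPC2 and GPC5 on 0.

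DLK1, a membrane protein with EGF-like repeats that marks hepatoblasts, read 6.78 and 6.95 with the control plasmid and 6.92 and 6.76 with STYK1. Control replicate 2 was the highest and STYK1 replicate 2 the lowest, with overlapping groups, and the difference of −0.02 (standard error 0.111, interval −0.31 to 0.27; limma, adjusted p = 0.999) was smaller than the gap of 0.16 between the control arrays. DLK1 lies in an imprinted cluster with the noncoding RNAs MEG3 and MEG8 and the genes RTL1 and DIO3. MEG3 passed the floor on 1 array, STYK1 replicate 2 at 0.79, and MEG8, RTL1 and DIO3 passed it on 0. DLK2, the relative of DLK1, read 0.97 and 0.67 with the control plasmid and 0.80 and 0.82 with STYK1.

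The imprinted pair on chromosome 11 gave almost no signal in either group. IGF2 read 0.91 and 0.76 with the control plasmid and 0.81 and 0.71 with STYK1, above the floor on all but STYK1 replicate 2. Its difference was −0.07 (standard error 0.102; limma, adjusted p = 0.991), and the groups overlapped. H19 read 0.56 and 0.63 with the control plasmid and 0.78 and 0.63 with STYK1. It passed the floor on STYK1 replicate 1 only, and the difference of 0.11 with a standard error of 0.0996 did not pass (limma, adjusted p = 0.983). At such signals the interval of a difference describes the signal on the array and sets no limit on a change of the transcript. MIR483, a microRNA hosted by IGF2 that has a probe set of its own, read 0.73 and 0.73 with the control plasmid and 0.59 and 0.31 with STYK1. It lay at or under the floor throughout, and its difference of −0.28 did not pass (limma, adjusted p = 0.979); it was picked after its values were seen.

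The H19 probe set is annotated with MIR675, the microRNA cut from H19 itself, and the hairpin is shown because a signal on that probe set cannot be divided between the long RNA and its microRNA. It lies at chr11:1996759-1996831 of GRCh38.p14, minus strand, in RefSeq, and capitals mark the 5p and 3p mature sequences. In the mature sequences, capitals mark the seed, bases 2 to 8.
MIR675 hairpin: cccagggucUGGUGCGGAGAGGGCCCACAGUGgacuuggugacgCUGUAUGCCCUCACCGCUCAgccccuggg
hsa-miR-675-5p: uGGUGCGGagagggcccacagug
hsa-miR-675-3p: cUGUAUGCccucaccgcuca

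PEG10, a domesticated retrotransposon gene with gag-like and pol-like parts, was well above the floor. It read 9.17 and 8.91 with the control plasmid and 8.84 and 9.09 with STYK1, and the groups overlapped. The difference was −0.07 with a standard error of 0.145 and an interval from −0.45 to 0.31 (limma, adjusted p = 0.996), and the gaps between replicates, 0.26 and 0.25, were larger. SGCE, its imprinted neighbour, which encodes a sarcoglycan, read 3.52 and 3.53 with the control plasmid and 3.62 and 3.68 with STYK1. The groups did not overlap for SGCE, but its difference of 0.13 did not pass (limma, adjusted p = 0.979).

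Of the IGF2 mRNA-binding proteins, IGF2BP1 was the steadiest member between control arrays. Its signal was 7.66 and 7.65 with the control plasmid and 7.63 and 7.71 with STYK1, so the controls lay inside the range of the STYK1 arrays. The difference was 0.02 with a standard error of 0.0874 and an interval from −0.21 to 0.25 (limma, adjusted p = 0.999). IGF2BP2, the paralogue that adult tissues keep, was also above the floor, at 5.69 and 5.86 with the control plasmid and 5.74 and 5.58 with STYK1. IGF2BP3, the third paralogue, gave a low signal and the widest interval of the members. It read 1.29 and 1.21 with the control plasmid and 1.52 and 1.04 with STYK1, so STYK1 replicate 1 was the highest and STYK1 replicate 2 the lowest. The gap of 0.48 between the STYK1 arrays exceeded the difference between the groups, 0.03 (standard error 0.179; limma, adjusted p = 0.999).

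LIN28B read 6.86 and 6.52 with the control plasmid and 6.61 and 6.79 with STYK1. Both extremes were control arrays, and the difference of 0.01 (standard error 0.148, interval −0.38 to 0.40; limma, adjusted p = 1.0) was far smaller than their gap of 0.33. LIN28A, the paralogue of embryonic stem cells, passed the floor on no array. LIN28 proteins bind let-7 precursors through a cold shock domain and through zinc knuckles that recognise GGAG in the loop region. The let-7 family is shown because these are the microRNAs on which LIN28B acts and which target several members. All 9 mature sequences in RefSeq share 1 seed, marked in capitals (bases 2 to 8).
hsa-let-7a-5p: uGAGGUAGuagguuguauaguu
hsa-let-7b-5p: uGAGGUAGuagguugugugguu
hsa-let-7c-5p: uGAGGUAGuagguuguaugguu
hsa-let-7d-5p: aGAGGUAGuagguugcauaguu
hsa-let-7e-5p: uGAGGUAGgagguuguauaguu
hsa-let-7f-5p: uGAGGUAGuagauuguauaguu
hsa-let-7g-5p: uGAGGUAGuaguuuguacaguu
hsa-let-7i-5p: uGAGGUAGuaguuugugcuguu
hsa-miR-98-5p: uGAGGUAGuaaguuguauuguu

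Of the 12 hairpins of this family, 9 hold GGAG between the 5p and the 3p mature sequence (for MIRLET7F2, whose 3p sequence was not used here, after the 5p sequence). The hairpins of MIRLET7A3, MIRLET7B and MIR98 do not. An example of each kind, a hairpin with GGAG in capitals and one without it, is given from GRCh38.p14: MIRLET7A1 at chr9:94175957-94176036, plus strand, and MIRLET7A3 at chr22:46112749-46112822, plus strand.
MIRLET7A1 hairpin: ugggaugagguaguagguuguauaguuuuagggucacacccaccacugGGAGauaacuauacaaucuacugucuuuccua
MIRLET7A3 hairpin: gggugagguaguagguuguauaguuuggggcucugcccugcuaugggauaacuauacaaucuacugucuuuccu

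The array holds 11 probe sets for let-7 family hairpin genes, of which 10 carry 1 symbol, and they give little signal in these cells. They were looked up after the members' values were seen, and they do not separate a precursor from its mature microRNA. Only MIR98 passed the floor on all 4 arrays, at 1.58 and 0.99 with the control plasmid and 1.59 and 1.54 with STYK1, 5 passed it on some arrays and 5 on none. Differences ran from −0.45 to 0.28, and 0 passed the adjusted threshold (limma), with 1 at an unadjusted p under 0.05. That one was MIRLET7A2, at 0.67 and 0.48 with the control plasmid and 0.12 and 0.12 with STYK1. All its values lie under the floor, so no fold is given.

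SALL4 was the member with the largest difference, at signals next to the floor. It read 0.67 and 0.80 with the control plasmid and 0.95 and 1.11 with STYK1, and it was the one member whose groups did not overlap. The difference was 0.29 with a standard error of 0.108 and an interval from 0.01 to 0.58; the unadjusted p was 0.045 and the adjusted p 0.979 (limma), so SALL4 did not pass. On the arrays in the same order the floor was 0.73, 0.76, 0.75 and 0.78; it too was lowest on control replicate 1 and highest on STYK1 replicate 2, and its part in the difference was not tested. Without 1 array the unadjusted p of SALL4 was 0.18 (control replicate 1 left out), 0.0652 (control replicate 2), 0.0474 (STYK1 replicate 1) and 0.178 (STYK1 replicate 2). SALL1, a relative with a role in kidney development, was well above the floor and read 3.60 and 3.57 with the control plasmid and 3.45 and 3.34 with STYK1 (difference −0.19; limma, adjusted p = 0.979). SALL2 read 1.73 and 1.51 with the control plasmid and 1.72 and 1.51 with STYK1, and SALL3 passed the floor on 1 array.

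Over all members, the comparison of the plasmids gave 0 of 10 past the adjusted threshold of 0.05 (limma). Of all probe sets 1 passed, a share of 0.00187%, and it was that of STYK1. STYK1, higher by 7.19 log2 units, had an adjusted p of 0.0373, and the next smallest was 0.108 (limma). With 2 arrays a group few calls are possible, so a member that did not pass is not shown to be unchanged. At an unadjusted p under 0.05 there was 1 of 10, SALL4, against 4.64% of all probe sets. The groups did not overlap for 1 of 10, against 32.8% of all probe sets. The members' differences were above 0 for 6 and below 0 for 4, against 51.9% of all probe sets above 0. Their median was 0.015, beside 0.0056 over all probe sets and 0.015 over those with a mean above the floor. For 9 members the difference was no larger than the larger of the gaps between replicates, as it was for 78.3% of all probe sets. Among the 7 members above the floor on all arrays the median size of the difference was 0.025. Over the 19673 probe sets with a mean above the floor the median size was 0.12. The filters differ, since IGF2 and SALL4, the latter at 0.29, also had a mean above the floor but are not among the 7. Signal levels were not matched either, so no conclusion is drawn from these medians.

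**Figure D2:**
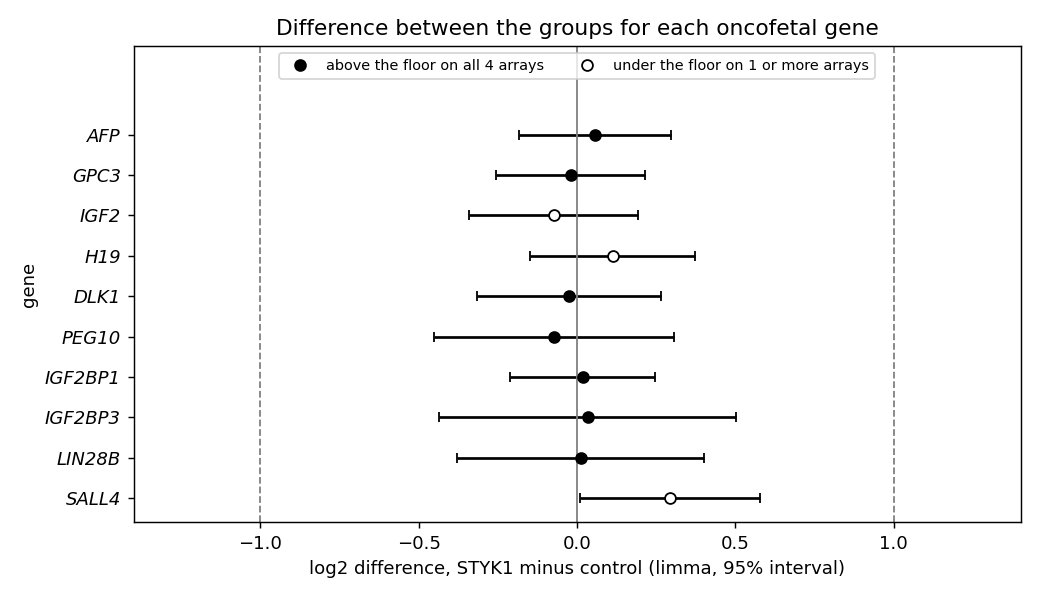
Log2 difference, STYK1 minus control, with its 95% interval from limma for each of the 10 genes; filled points are genes above the floor on all 4 arrays, open points genes under it on 1 or more, the solid line marks no difference and the dashed lines a 2-fold difference in either direction. All 10 intervals lie between −0.45 and 0.58, inside the dashed lines, and that of SALL4 alone leaves out 0, by 0.01.

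For the 7 members above the floor on every array the width of the interval differed from gene to gene. The lowest limit was that of PEG10, 0.731 times the control signal, and the highest that of IGF2BP3, 1.42 times, while the interval of IGF2BP1 ran from 0.864 to 1.19 times. Each of these 7 intervals lay inside a 2-fold difference in both directions, as did those of 95.6% of all probe sets. These intervals are not adjusted for the number of genes. An exact permutation test is not given, because 2 arrays against 2 cannot reach the threshold.

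Beside the members, 7 lists of related genes were compared: relatives of members, regulators of AFP, receptors and mediators of IGF and insulin, other imprinted genes, the let-7 axis, other hepatoblast genes and the NuRD partners of SALL4. Of 81 listed genes 70 had a probe set with that symbol alone, and 56 of these had a mean above the floor. By limma 0 of the 70 passed the adjusted threshold, 2 were higher and 3 lower at an unadjusted p under 0.05, where 2.73% and 1.91% of all probe sets were, and the groups did not overlap for 28.6%, beside 32.8% over all probe sets.

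Regulators of AFP were all measurable, with 9 of 9 above the floor, and 4 were higher and 5 lower, with a median of −0.0011. ZHX2 and ZBTB20, repressors of AFP after birth, read 4.77 and 4.77, and 1.30 and 1.06, with the control plasmid, and 4.90 and 4.61, and 1.46 and 1.13, with STYK1. Both overlapped between the groups. FOXA2, a pioneer factor of the liver, had the largest difference of the list at −0.26, with overlapping groups (limma, adjusted p = 0.979). CEBPA, a factor of mature hepatocytes, read 7.79 and 7.62 with the control plasmid and 7.36 and 7.59 with STYK1. Its difference was −0.23 (limma, adjusted p = 0.979), and it was the 1 gene of the 9 whose groups did not overlap. Over all probe sets the groups did not overlap for 32.8%.

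Genes of IGF and insulin signalling were above the floor on every array, with 8 of 8 measured. IGF1, the postnatal relative of IGF2, passed the floor on no array. IGF2R, which clears IGF2, read 6.27 and 6.50 with the control plasmid and 6.23 and 6.50 with STYK1. The signalling receptors IGF1R and INSR differed by −0.20 and 0.10, neither of which passed. IRS2, an adaptor of these receptors, read 0.95 and 0.84 with the control plasmid and 1.20 and 1.19 with STYK1, and its difference of 0.31 did not pass (limma, adjusted p = 0.979). AKT2 differed by −0.23. Of the 8 measured genes 3 were higher and 5 lower, with a median of −0.046.

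Among 12 measured imprinted genes 5 had a mean above the floor, and 8 were higher and 4 lower with a median of 0.034. KCNQ1OT1, the noncoding RNA of the neighbouring imprinted domain on chromosome 11, read 1.14 and 1.09 with the control plasmid and 1.34 and 1.39 with STYK1 (difference 0.25; limma, adjusted p = 0.979). MEST differed by −0.18. In the let-7 axis 6 of 8 genes were higher and 2 lower, with a median of 0.014. HMGA2, a chromatin protein and let-7 target, was low at 1.09 and 1.05 with the control plasmid and 1.23 and 1.23 with STYK1. The let-7 processing genes DICER1, TUT4 and TUT7 differed by 0.04, 0.01 and 0.02, and CCND2 by −0.12, none of which passed.

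Other hepatoblast and progenitor genes were above the floor in 11 of 11 cases, with 5 higher, 6 lower and a median of −0.022. MDK, a heparin-binding growth factor, read 5.26 and 5.23 with the control plasmid and 4.93 and 5.03 with STYK1, and KRT19, a keratin of progenitors and bile ducts, 3.36 and 3.31 against 3.04 and 3.12. Their differences of −0.26 each did not pass (limma, adjusted p = 0.979). EPCAM, a surface protein of hepatoblasts, differed by 0.18 in the other direction and did not pass either. Of the 8 measured NuRD genes, which partner SALL4, 7 were higher and 1 lower, with a median of 0.061. The lower one was MBD3, a core subunit of the complex, at 3.63 and 3.55 with the control plasmid and 3.26 and 3.28 with STYK1 (difference −0.32; limma, adjusted p = 0.979), and MTA1 differed by 0.17.

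**Figure D3:**
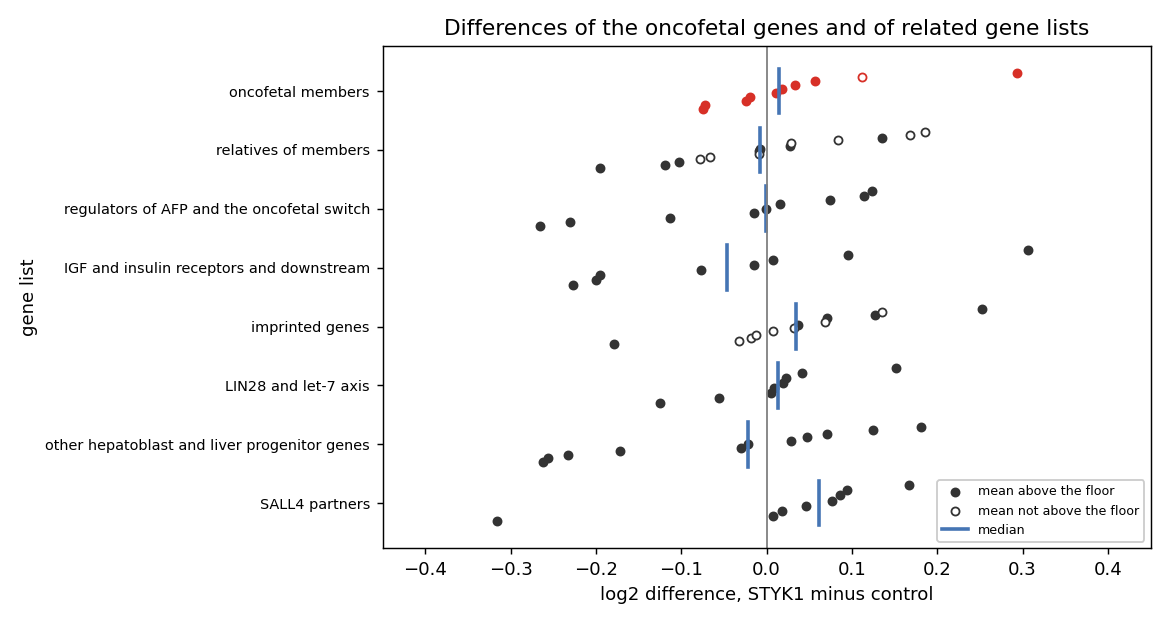
Log2 difference, STYK1 minus control, of each oncofetal gene (red) and of each measured gene of the 7 related lists (black), 1 row per list; filled points have a mean above the floor, open points do not, and blue bars are list medians. Every list spreads to both sides of 0, and the medians lie between −0.046 and 0.061. None of the points passed the adjusted threshold.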

How the data were processed

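RNA of 4 Huh7 samples was hybridised to biotin-labelled whole-transcript arrays. The authors deposited 1 table of log2 signals; base 2 was inferred from the values. Per the submitters' processing notes the software was the Transcriptome Analysis Console; version, summarization, normalization and genome build were not given in the sources used here. No detection calls or scan dates were used, so no batch could be examined. Array medians lay between 0.615 and 0.629, correlations between arrays between 0.985 and 0.987, and no array was a copy of another. Values were used as deposited. The arrays may be technical replicates, and p-values cover only their spread.

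Probe sets were named from the platform annotation, with symbols updated by Entrez ID through RefSeq (GRCh38.p14): 23871 of 53617 had 1 symbol, 1842 several and 27904 none here. Genes with several probe sets used that with the highest mean. The floor rests on 432 olfactory receptor probe sets. Groups were compared with limma 3.58.1 (R 4.3.3), lmFit and eBayes, two-sided, adjusted by Benjamini-Hochberg across the whole table; 2 residual and 2.71 prior degrees of freedom. The fit was tested on simulated data. Alternatives were scaling, variance prior, filter, replicate block, floor and leaving out arrays. Named were STYK1, all members, all measured relatives of members, and from each other list the pair of genes above the floor with the largest differences; other listed genes were picked by their role. The members, lists and rule were chosen with earlier results of these data known. Motifs were searched in RefSeq promoter windows.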

Additional observations from a re-analysis of the deposited data

How the results depend on the processing

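All alternatives were planned. No member passed the adjusted threshold in any alternative run for it (adjusted p from 0.956 to 1.0). H19, IGF2 and SALL4 kept their sign in each, but without 1 array at a time the difference of IGF2 ranged from −0.15 to −0.0021, practically 0, that of H19 from 0.037 to 0.19 and that of SALL4 from 0.21 to 0.38. Among all probe sets 1 passed as reported, 0 with the replicate block and 0 in each fit without 1 array, where fewer residual degrees of freedom are left. Members at an unadjusted p under 0.05 went from 1 to 0 with quantile normalization between arrays, to 0 with only probe sets above the floor, and to 0 to 1 without 1 array. That member was SALL4, whose difference of 0.29 was 0.28 with quantile normalization (limma, unadjusted p = 0.0597) and 0.29 with only probe sets above the floor (limma, unadjusted p = 0.0774). The median difference over members was −0.015 with quantile normalization and 0.0053 to 0.045 without 1 array. Members whose groups do not overlap were 3 to 7 without 1 array, since fewer arrays overlap less. The share over all probe sets is given here only for the comparison with all arrays. These counts thus have no matching share, and no conclusion is drawn from them. With quantile normalization the differences of IGF2BP3 and LIN28B turned to −0.0057 and −0.024. Without 1 array at a time the differences ranged from −0.00097 to 0.11 for AFP, −0.07 to 0.031 for GPC3, −0.11 to 0.057 for DLK1, −0.2 to 0.059 for PEG10, −0.022 to 0.06 for IGF2BP1, −0.21 to 0.27 for IGF2BP3 and −0.16 to 0.18 for LIN28B, each crossing 0; the cause was not tested. The labels do not say that same-numbered arrays share a culture, and their deviations correlated at −0.044; with the replicate block SALL4 differed by 0.29 (limma, unadjusted p = 0.0411) and no member's call changed. Each member has 1 probe set, so averaging probe sets changed nothing. Signals near the floor limit what can be read of IGF2, H19 and SALL4.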
